A study of Equus caballus with 10 samples.

Results

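The secreted WNT antagonists described here are 10 genes, SFRP1, SFRP2, SFRP4, SFRP5, FRZB, DKK1, DKK2, DKK3, WIF1 and SOST, of the 29196 genes in the table, and all 10 have a row in it. They were chosen by gene name as a family, with earlier values of this same comparison known, among them those of SFRP2, so their differences and adjusted p-values are given as a description and support no claim about the family. Equine tenocytes, the fibroblast-like cells of tendon, came from the superficial digital flexor tendons of 5 horses of Thoroughbred type, taken after death, and were kept in 3D collagen gels for 14 days. All gels of both groups were given 100 nM of PF-06650833, which inhibits the kinase IRAK-4, every day. In 5 libraries this was the only addition (PF gels), and in the other 5 the gels also had IL-1β at 17 ng/ml with each change of medium (IL-1β/PF gels). Each horse, called donors 1 to 5 here, gave 1 library to each group. The cells had been passaged on plastic before they were put into bovine collagen, and RNA was taken from several gels. Untreated gels and gels with IL-1β but no inhibitor were not analysed here, so the comparison shows what differed with IL-1β while the inhibitor was present.

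WNT proteins are secreted, lipid-modified ligands that bind Frizzled receptors together with the co-receptors LRP5 and LRP6, which stabilises β-catenin and switches on TCF/LEF target genes. Secreted antagonists act on this step outside the cell in different ways. The secreted frizzled-related proteins, SFRP1, SFRP2, SFRP4, SFRP5 and FRZB (also called SFRP3), carry a cysteine-rich domain like that of Frizzled and can bind WNT ligands, as does WIF1. DKK1 and DKK2 and the product of SOST, sclerostin, instead bind LRP5 and LRP6, while DKK3 is a divergent member of the DKK family. In tendon, cartilage and bone these proteins are studied as modulators of matrix formation and mineralisation.

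The deposited values are variance-stabilized log2 values, where 3.433 stands for 0 reads and differences at few reads are compressed. The reads assigned to genes were estimated from the spacing of the lowest values at roughly 26429492 to 35749714 per library. These are not the reads sequenced, and the groups overlapped in this depth. Differences are IL-1β/PF gels minus PF gels, and a gene was called at an adjusted p below 0.05 (limma, Benjamini-Hochberg over 17992 tested genes) and an absolute difference of at least 1. Of the 10 markers of tenocytes, SCX and MKX, transcription factors of tendon, were well above 0 reads in every library but called lower in IL-1β/PF gels (differences of -3.24 and -2.85), as was the matrix gene TNC (-2.04). TNMD, a defining gene of mature tendon, was at 0 reads in all 10 libraries. The other 6 were not called, with differences of -1.38 for COL1A1, -1.28 for COL1A2, -1.31 for FMOD, -1.22 for THBS4, 1.01 for DCN and 0.33 for LUM, and the list summed to 919999.3 to 1500167 normalized counts in PF gels against 299082.3 to 1265153. Among markers of other cells, the B and T cell genes MS4A1 and CD3E, the epithelial genes EPCAM and KRT5 and the muscle gene MYOD1 were at 0 reads throughout, and the leukocyte gene PTPRC had reads in 1 library. The endothelial, Schwann cell and cartilage or bone lists summed to at most 45.9, 12.8 and 9.5 normalized counts in any library. Of their genes 4 of 5, 1 of 3 and 1 of 4 were tested, and none of these was called. BGLAP, in the cartilage or bone list, had no row. The sum of the 7 leukocyte markers ran from 1.3 to 1675.5 in PF gels and from 1.2 to 1719.4 with IL-1β added, and its high values came from CD14, which had reads in 6 of 10 libraries and was not called (difference 2.66, adjusted p = 0.340, limma). Of the 4 mural or muscle markers DES and RGS5 were called lower (-2.98 and -1.96). The list summed to 1296.8 to 33934.9 normalized counts against 3784.1 to 12134.9. Its high sums came from MYH11, with up to 32520 normalized counts, which was not called (difference -0.56, adjusted p = 0.678, limma). CDH1 was called lower (-2.22, epithelial list 532.4 to 1571.2 against 43.1 to 442.2). ADIPOQ was called higher (3.11, adipocyte list 17.8 to 167.3 against 361.6 to 2326.4). Each of these sums came mostly from the called gene, since KRT14 had at most 4.24 normalized counts and PLIN1 at most 8.68. PLIN1 was not called (difference 0.33, adjusted p = 0.384, limma), and FABP4, also in the adipocyte list, had no row. In such bulk libraries fewer cells of a type and less RNA per cell cannot be told apart, and the part of these markers in the results below was not tested.

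SFRP2 and SFRP4 were much lower in IL-1β/PF gels, in all 5 donors, and they were the only members called. Of the 10 members 9 could be tested, and 2 were called, both lower. Of all 17992 tested genes 6.68% were called, 3.57% lower and 3.11% higher. These were also the 2 tested members whose groups did not overlap, which held for 12.7% of all tested genes. The median difference was -0.25 over the 9 tested members and -0.01 over all tested genes. Since the same comparison was known when the family was chosen, nothing is read from these shares.

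**Figure D1:**
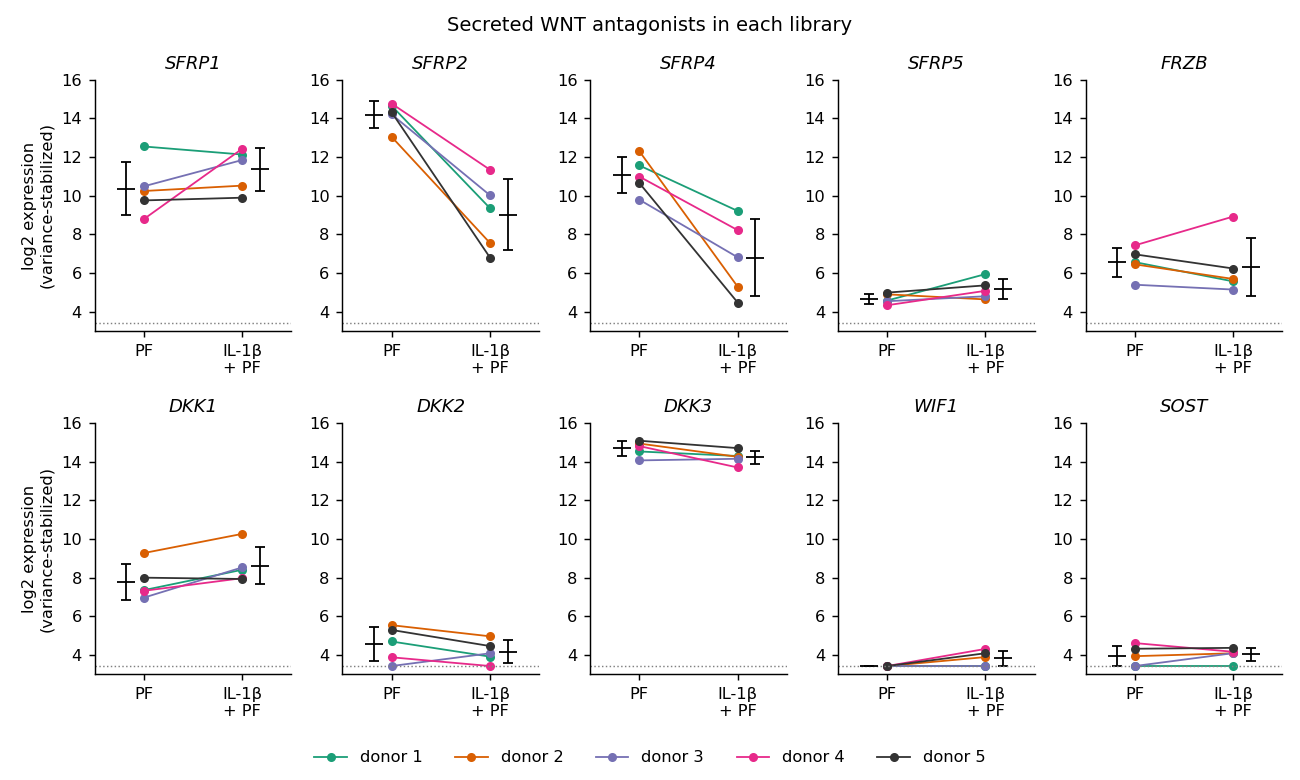
Variance-stabilized log2 expression of the 10 secreted WNT antagonists in PF gels (PF) and in IL-1β/PF gels (IL-1β + PF). Each coloured line joins the 2 libraries of a donor, the black bars at the sides give the mean and SD of 5 libraries, and the dotted line is the value of 0 reads (3.433). SFRP2 and SFRP4 drop in every donor, whereas the groups of the other 8 genes overlap.

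SFRP2 encodes a secreted frizzled-related protein made by many fibroblasts. Its log2 expression in PF gels was 14.66, 13.05, 14.21, 14.77 and 14.32 in donors 1 to 5. In IL-1β/PF gels it was 9.36, 7.56, 10.03, 11.35 and 6.81 in the same donors. The highest library with IL-1β was thus below the lowest without it, and donor 2, the lowest without IL-1β, was not the lowest with it. The group means were 14.20 ± 0.68 (SD, n = 5) and 9.02 ± 1.84 (SD, n = 5), a difference of -5.18 (standard error 0.75, adjusted p = 0.00140, limma). In normalized counts SFRP2 was between 10.8-fold lower in donor 4 and 224-fold lower in donor 5, with a median of 40.6-fold over the donors. By size this was the third of all decreases in the table of tested genes. The estimated reads behind these values were 6272 to 25628 a library in PF gels and 78 to 1812 in IL-1β/PF gels.

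SFRP4, a relative of SFRP2 that is active in connective tissue and bone, followed the same direction with more spread. In PF gels it was at 11.57, 12.30, 9.80, 10.99 and 10.66 in donors 1 to 5. In IL-1β/PF gels it was at 9.21, 5.30, 6.82, 8.22 and 4.48. No library with IL-1β reached the lowest library without it, which was that of donor 3, but donor 1 with IL-1β lay only a little below. The means were 11.07 ± 0.94 and 6.81 ± 1.97 (SD, n = 5 each), a difference of -4.26 (standard error 0.83, adjusted p = 0.00656, limma). The size of the fall was uneven, and the difference was -7.01 and -6.18 in donors 2 and 5, and -2.35, -2.98 and -2.77 in donors 1, 3 and 4. In normalized counts this was 243-fold and 269-fold lower in donors 2 and 5, where about 18 and 5 reads were left, against 5.27-fold to 9.42-fold in the others. With few reads left, the ratios of donors 2 and 5 are imprecise.

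SFRP1, whose product is among the best studied soluble WNT inhibitors, showed no such fall. It was at 12.55, 10.25, 10.49, 8.79 and 9.76 in PF gels and at 12.13, 10.53, 11.85, 12.43 and 9.90 in IL-1β/PF gels in donors 1 to 5. The groups overlapped over most of their range. The mean difference was 1.00, but its 95% interval ran from -0.47 to 2.47 (standard error 0.67, adjusted p = 0.358, limma), and SFRP1 was not called. Donor 4 had the largest difference, 3.64, a 13.0-fold higher normalized count, and without that donor the mean difference was 0.34. Without donor 1 it was 1.35, and without the PF library of donor 1 it was 1.55, and SFRP1 was called in neither. Donor 3 was also higher, donors 2 and 5 differed by only 0.28 and 0.14, and donor 1 was lower, at -0.42.

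SFRP5 had few reads in every library and FRZB had 15 to 327, and neither was called. SFRP5 lay between 4.34 and 5.00 in PF gels (4 to 13 reads) and between 4.64 and 5.95 in IL-1β/PF gels (7 to 34 reads). Its difference was 0.50 (95% interval -0.07 to 1.07, adjusted p = 0.228, limma), with higher values in 4 of 5 donors. FRZB was at 6.57, 6.46, 5.40, 7.44 and 6.97 in donors 1 to 5 in PF gels and at 5.57, 5.70, 5.15, 8.93 and 6.24 in IL-1β/PF gels. It was lower in donors 1, 2, 3 and 5 and higher by 1.49 in donor 4, which was the highest library of both groups. The mean difference of FRZB was -0.25 (95% interval -1.69 to 1.19, adjusted p = 0.846, limma). Without the IL-1β library of donor 4 it was -0.90 and still not called, and without that of donor 3 it turned to 0.04.

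DKK1, the classical inhibitor that removes LRP5 and LRP6 from WNT signalling, was higher in 4 of 5 donors. It was at 7.36, 9.27, 6.97, 7.32 and 8.0 in PF gels and at 8.41, 10.26, 8.53, 7.98 and 7.93 in IL-1β/PF gels in donors 1 to 5. The groups overlapped, and donor 2 was the highest in both. The difference of DKK1 was 0.84 (95% interval -0.29 to 1.96, adjusted p = 0.307, limma). It was 0.43 without the IL-1β/PF library of donor 2, 1.21 without the PF library of that donor and 0.80 without both. With the donor as a replicate block its standard error fell from 0.51 to 0.22 and its adjusted p was 0.0322 (limma), but at 0.84 it stayed below the minimum difference and was not called. Within donors the increase was 1.05, 0.99, 1.56 and 0.65 in donors 1 to 4, while donor 5 was at -0.07.

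DKK3 had many reads in every library and a small spread within groups. It was at 14.52, 14.93, 14.06, 14.80 and 15.08 in PF gels and at 14.29, 14.25, 14.15, 13.70 and 14.70 in IL-1β/PF gels. Its difference was -0.47 (95% interval -0.95 to 0.02, adjusted p = 0.188, limma), with lower values in 4 of 5 donors, and it was not called. With the donor as a replicate block the interval was -0.86 to -0.07 (adjusted p = 0.0907, limma), and DKK3 was still not called. Both intervals exclude a fall as large as those of SFRP2 and SFRP4. With at least 9299 reads in every library, depth does not limit this value. DKK2, which like DKK1 binds LRP5 and LRP6, had about 8, 20, 0, 1 and 20 reads in donors 1 to 5 in PF gels and 1, 12, 2, 0 and 5 in IL-1β/PF gels. Its difference was -0.40 (95% interval -1.33 to 0.54, adjusted p = 0.588, limma), lower in 4 of 5 donors and higher in donor 3.

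WIF1 and SOST were at or close to the value of 0 reads. WIF1 had 0 reads in all 5 libraries in PF gels and about 1, 3 and 2 reads in donors 2, 4 and 5 in IL-1β/PF gels, so it was not tested. A count of 0 in a single library allows up to 3 reads, and a difference of WIF1 among so few reads could not be resolved at this depth. SOST, best known from osteocytes, had 0 to 7 estimated reads a library in PF gels and 0 to 4 in IL-1β/PF gels. Its difference was 0.08 (95% interval -0.51 to 0.67, adjusted p = 0.876, limma), and donors went both ways.

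**Figure D2:**
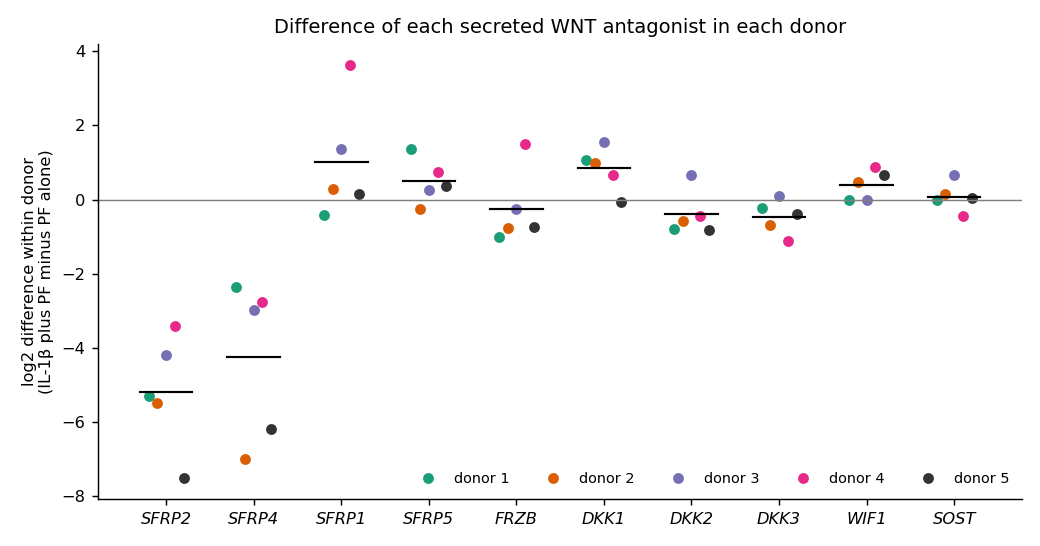
Log2 difference (IL-1β/PF gels minus PF gels) of each secreted WNT antagonist within each of the 5 donors, with the black line at the mean. SFRP2 lies between -7.51 and -3.42 and SFRP4 between -7.01 and -2.35, while every other member has donors on both sides of 0 or at 0.

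The 5 donors did not rank alike over all members, as the plot of differences within donors shows. Donors 2 and 5 had the largest falls of both called members, SFRP2 and SFRP4 (-7.01 and -6.18 for SFRP4). The fall of SFRP2 was largest in donor 5 (a difference of -7.51), intermediate in donors 1 and 2 (-5.30 and -5.49) and smallest in donors 3 and 4 (-4.18 and -3.42). Donor 4, with the smallest fall of SFRP2, had the largest differences of SFRP1 and FRZB upwards and of DKK3 downwards (-1.11). The share of the variation within groups that lay between donors was 89.6% for DKK1, 83.8% for DKK2 and 82.1% for FRZB, against 50% for libraries that share nothing. It was 68.7% for SFRP2, 58.4% for SFRP1 and 50.9% for SFRP4. The values of DKK1 thus followed the horse more than those of SFRP4 did, in shares that carry no test with 5 donors.

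By Pearson correlation of log2 values over the 10 libraries, which share their group and donor, the named genes most like SFRP2 were STAU2 (0.99), CXHXorf38 (0.99) and DLC1 (0.99). Those most like SFRP4 were FBXL16 (0.98), SPATA33 (0.97) and FXYD1 (0.97). Their differences ran from -0.47 for STAU2 to -1.77 for DLC1, and that they are negative follows from the choice by correlation with genes whose groups do not overlap.

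The other genes of the WNT pathway were taken from 6 lists by role, 75 genes in all. Of these 66 were tested and 11 were called, 7 higher and 4 lower in IL-1β/PF gels, a share of 16.7% against 6.68% of all tested genes. With the donor as a replicate block 15 were called, 11 higher and 4 lower, against 8.26% of all tested genes. The median difference of the 66 genes was 0.08. The count fell to 5 without donor 1 or without donor 2. It fell to 7 without donor 5, without the library of donor 5 in PF gels, or without that of donor 1 with IL-1β. Over all tested genes the count also fell, from 1202 to 762, 790 and 777 without donors 1, 2 and 5. Without those 2 libraries it was 978 and 966. Without a minimum difference 19 pathway genes passed the adjusted p, 9 higher and 10 lower, against 2782 of all 17992 tested genes. Without donor 2 the 5 pathway genes were all higher. These lists were written with earlier results of these data known, as was the family itself.

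**Figure D3:**
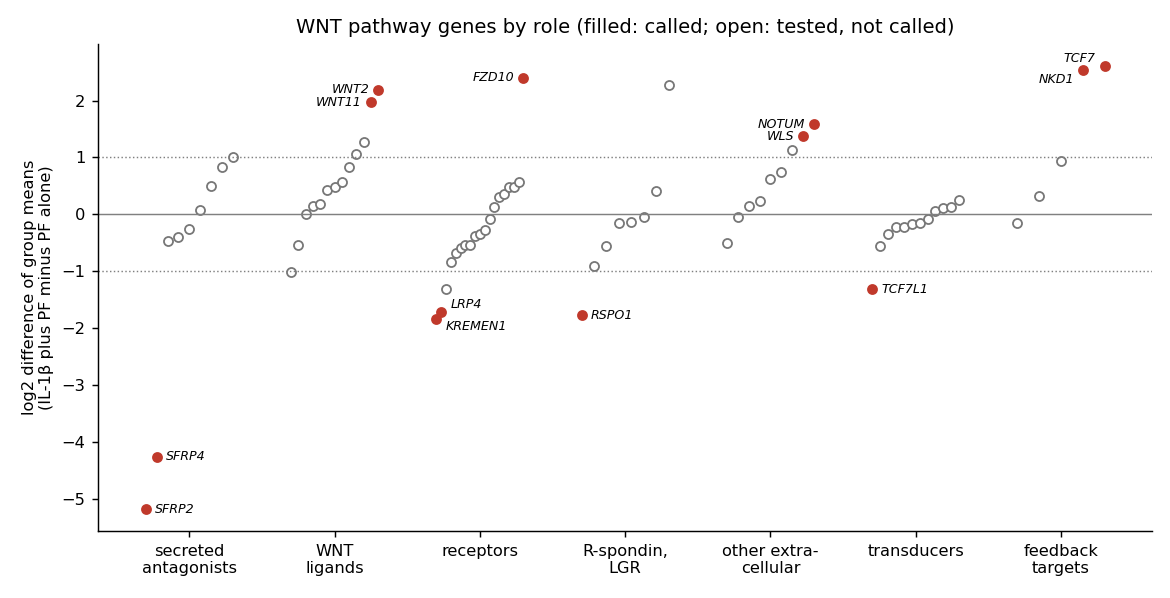
Log2 difference of the group means (IL-1β/PF gels minus PF gels) for the 9 tested antagonists and the 66 other tested WNT pathway genes, by role. Filled red points are genes called in the fit without the donor, open points were tested and not called, and dotted lines mark the minimum difference of 1. SFRP2 at -5.18 and SFRP4 at -4.26 lie below all other points, which range from -1.84 (KREMEN1) to 2.60 (TCF7).

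Among the 19 receptor genes, all tested, 3 were called, and 2 of these bind members of the antagonist family. KREMEN1 encodes a receptor for DKK proteins. It was at 8.75, 8.69, 8.75, 8.80 and 9.54 in PF gels and at 7.21, 7.04, 7.05, 8.56 and 5.49 in IL-1β/PF gels in donors 1 to 5. The groups did not overlap, although donor 4 fell little (difference -1.84, standard error 0.45, adjusted p = 0.0186, limma). LRP4, whose product binds sclerostin, was at 10.50, 11.06, 10.67, 10.44 and 10.35 and at 8.38, 8.23, 10.10, 9.72 and 8.05. Its groups did not overlap either, and donors 3 and 4 were the least changed (difference -1.71, standard error 0.38, adjusted p = 0.0124, limma). The call of KREMEN1 was lost without donor 1 (adjusted p = 0.0731, limma) and without donor 2 (0.0741), and that of LRP4 without donors 1, 2 or 5 (0.0677, 0.0756 and 0.0501). The co-receptors LRP5 and LRP6, on which DKK1 and sclerostin act, were not called, with differences of -0.27 (95% interval -0.71 to 0.17) and -0.08 (-0.40 to 0.23). The third receptor called was FZD10, a Frizzled receptor, at 5.82 to 10.16 against 9.64 to 11.61 and higher in 5 of 5 donors (difference 2.40, adjusted p = 0.0458, limma). FZD10 passed by little, with overlapping groups, and of 15 fits with a library or donor removed it was called only in those without donor 3, without the PF library of donor 3 or without that of donor 1 (adjusted p of limma between 0.0178 and 0.139 over the 15, and 0.00556 with the replicate block). FZD10 also lost its call with all genes that were not constant (adjusted p = 0.0506, limma), on back-transformed values (0.0521 and 0.0530), and without a mean-variance trend or with a robust one (0.0589 and 0.0581). ROR2, named after its values were seen, was called lower with the replicate block but not without it (difference -1.31, adjusted p = 0.107 without and 0.0318 with the block, limma), and it was lower in 4 of 5 donors.

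Of the 19 WNT ligand genes 13 were tested and 2 were called, both higher. WNT2, a ligand of β-catenin signalling, lay between 4.22 and 5.21 in PF gels (3 to 16 reads) and between 5.53 and 8.54 in IL-1β/PF gels (19 to 309 reads). Its groups did not overlap (difference 2.19, adjusted p = 0.0283, limma), and donors 2 and 5 were the highest with IL-1β. WNT11, mostly studied in β-catenin-independent signalling, was higher in 4 of 5 donors (difference 1.97, adjusted p = 0.0219, limma), and donor 4 went from 8.49 to 8.29. Of 15 fits with a library or donor removed, WNT11 lost its call in 6, those without donor 1, 2 or 5, without the IL-1β/PF library of donor 1 and without the PF library of donor 1 or 5 (differences of 1.61 to 2.52). WNT2 lost its call in 9, those without donor 1, 2 or 5, without an IL-1β/PF library of these donors and without the PF library of donor 2, 4 or 5 (differences of 1.79 to 2.55). With the replicate block, WNT5A (1.28, adjusted p = 0.0116, limma) and WNT9A (1.06, 0.0448) were called as well, each higher in 5 of 5 donors, against 0.123 and 0.0954 without it.

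The lists of other extracellular genes and of feedback targets held the smallest adjusted p-values of the pathway. NOTUM is a secreted enzyme that strips the lipid from WNT ligands and so is itself an extracellular WNT antagonist outside the 10 members. It was at 9.57, 9.34, 8.78, 8.48 and 9.13 in PF gels and at 11.07, 10.69, 10.48, 10.57 and 10.40 in IL-1β/PF gels in donors 1 to 5. Every library with IL-1β was above every library without it, the opposite of SFRP2 and SFRP4 (difference 1.58, standard error 0.21, adjusted p = 0.000814, limma). WLS, which carries WNT ligands to the cell surface, was higher in 5 of 5 donors, at 12.79 to 13.19 against 14.02 to 14.74 (difference 1.37, adjusted p = 0.000283, limma). PORCN, the enzyme that adds the lipid, was higher in 5 of 5 donors by less than the minimum difference (0.63, adjusted p = 0.00407, limma). Of the 9 genes in this list these 2, NOTUM and WLS, were called, and TPBG, named after its values were seen, joined them with the replicate block (1.13, adjusted p = 0.0814 without and 0.00584 with the block, limma).

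Of the 7 feedback target genes 5 were tested and 2 were called, both higher. NKD1, an intracellular inhibitor that WNT signalling induces, was at 5.99, 6.65, 5.78, 5.81 and 6.73 in PF gels. In IL-1β/PF gels it was at 9.12, 9.49, 8.22, 7.90 and 8.89, above all PF libraries (difference 2.53, standard error 0.33, adjusted p = 0.000795, limma). TCF7, a TCF/LEF transcription factor, was at 9.41, 9.21, 9.88, 8.55 and 8.77 in PF gels and rose to 12.08, 11.97, 11.38, 11.64 and 11.78 (difference 2.60, standard error 0.23, adjusted p = 0.000134, limma). AXIN2, the target most used as a readout of β-catenin signalling, was not called, at 9.94 to 10.91 against 10.09 to 11.24 (difference 0.33, 95% interval -0.19 to 0.84, adjusted p = 0.397, limma). Its difference was 0.11 without donor 4 and 0.61 without donor 5, and with a library or donor removed it was called in none of 15 fits. LEF1 had a difference of -0.15 (95% interval -1.08 to 0.78) and CCND1 of 0.94 (0.02 to 1.86, adjusted p = 0.160, limma), and neither was called. CCND1 was higher in 4 of 5 donors and lower in donor 4, at -0.87. The list thus moved unevenly, with NKD1 and TCF7 higher and AXIN2 within the spread of its libraries.

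**Figure D4:**
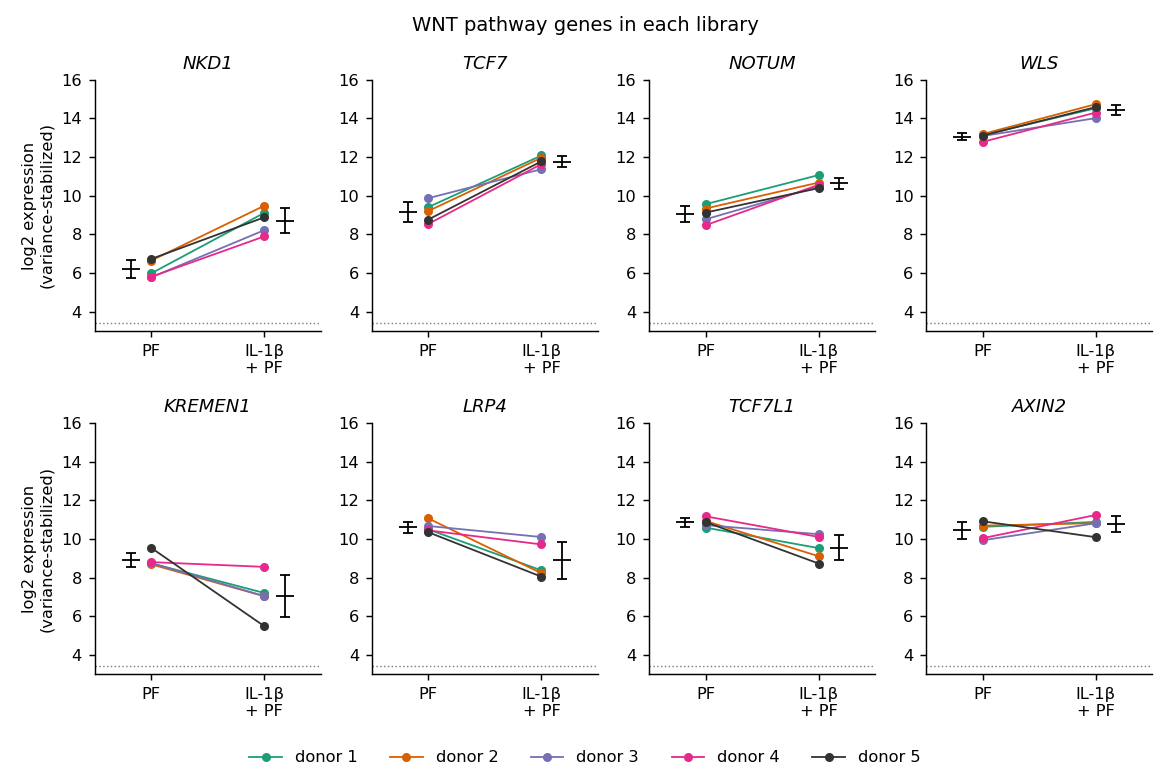
Variance-stabilized log2 expression of 8 WNT pathway genes in PF gels (PF) and IL-1β/PF gels (IL-1β + PF), drawn as for the antagonists, with lines joining the libraries of a donor, bars for mean and SD of 5 libraries and a dotted line at 0 reads. NKD1, TCF7, NOTUM and WLS are higher and KREMEN1, LRP4 and TCF7L1 lower in every donor, while AXIN2 overlaps between groups.

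Among 12 intracellular transducers only TCF7L1, a TCF/LEF factor that often acts as a repressor, was called. It was at 10.59, 10.93, 10.72, 11.17 and 10.88 in PF gels and at 9.53, 9.11, 10.25, 10.10 and 8.73 in IL-1β/PF gels (difference -1.31, standard error 0.27, adjusted p = 0.00793, limma). Its groups did not overlap, and the call was lost without donor 2 (adjusted p = 0.0515, limma). CTNNB1, the gene of β-catenin, had a difference of 0.12. The list of R-spondin and LGR genes, which amplify WNT signals, also held RNF43 and ZNRF3, which belong to neither family. Of its 9 genes 8 were tested, and RSPO1 was called lower (difference -1.77, adjusted p = 0.0424, limma). RSPO1 went from 11 to 147 estimated reads per library to between 0 and 32 and was lower in 4 of 5 donors. It lost its call with the replicate block (adjusted p = 0.0523, limma) and in 11 of 15 fits with a library or donor removed, keeping it only without donor 3 or 4, without the PF library of donor 3 or without the IL-1β/PF library of donor 4. LGR4, a receptor of R-spondins, was lower in 5 of 5 donors by less than the minimum difference (-0.91, adjusted p = 0.00886, limma). LGR6, named after its values were seen, was higher in 5 of 5 donors and called with the block but not without it (difference 2.27, adjusted p = 0.0689 without and 0.0146 with the block, limma).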

How the data were processed

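Libraries of 10 samples of equine tenocytes were read as paired ends. Salmon (1.8, with GC-bias correction) was run by the authors against the transcriptome of EquCab3.0, and tximport summed the result to genes. What the authors deposited are normalized, variance-stabilized log2 values. The transformation is not named in the sources used here and was recognised from a lowest value common to all libraries. Inverting it gave normalized counts, from which the reads per gene and library were estimated. They are approximate.

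Genes with reads in 5 or more of the 10 libraries were fitted with limma (3.58.1, R 4.3.3) with a mean-variance trend and no donor term, since the study names none, and all adjusted p-values are limma's with Benjamini-Hochberg adjustment over all tested genes. Intervals are 95% intervals of that fit, or of the fit with the replicate block where it is named. The fit without the block does not use the pairing of libraries by donor. With the block the interval was -0.21 to 2.21 for SFRP1, -1.08 to 0.58 for FRZB and -0.97 to 0.17 for DKK2. It was -0.07 to 1.07 for SFRP5 and -0.36 to 0.53 for SOST. The replicate number stands for the horse, named in the labels, which pairs the libraries. Deviations from the group means correlated across genes between 0.367 and 0.506 in the 5 pairs of a donor and at -0.107 on average in the 20 pairs of different donors. Since such deviations cancel within a group, the average for different donors largely follows from the values within donors and is no separate comparison.

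The members, lists and tests were chosen with earlier results of these data known. All members were named, as were the pathway genes called, AXIN2, LEF1, WNT5A, LRP5, LRP6 and KREMEN1, and the 3 genes most correlated with each called member. PORCN, LGR4, CTNNB1, CCND1, WNT9A, ROR2, TPBG, LGR6, DKK4, SOSTDC1, APCDD1, RNF43 and ZNRF3 were named after their values were seen. Promoter and protein sequences and gene lengths were not used here, so levels were not compared between genes.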

Additional observations from a re-analysis of the deposited data

Results flagged for a closer look

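In 4 of 59 groups of 5 libraries over the named genes, 1 library stood far from the other 4 by Dixon's test at the 95% level, where chance gives about 1 in 20 groups (2.95 here). Among the antagonists, FRZB was at 8.93 in donor 4 in IL-1β/PF gels, against 5.15 to 6.24 in the other 4 libraries. DKK1 was at 10.26 in donor 2 in IL-1β/PF gels, against 7.93 to 8.53. Donor 2 was also the highest library of DKK1 in PF gels, at 9.27. Of the pathway genes, KREMEN1 was at 9.54 in donor 5 in PF gels, against 8.69 to 8.80, and WLS at 12.79 in donor 4 in PF gels, against 13.09 to 13.19. The causes were not tested.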

How the results depend on the processing

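SFRP2 and SFRP4 were called lower under all 29 alternatives. Their differences were -5.76 to -4.60 and -4.87 to -3.57, with adjusted p-values of limma of at most 0.0156 and 0.0446. Among the 29, settings that changed only a threshold reused the main fit, and dropping the minimum difference could lose no call. The other 7 tested members, and WIF1 where it was tested, were called under none. Across all genes, 1202 were called, 2782 without a minimum difference, 719 at an adjusted p below 0.01, 628 at a minimum difference of 1.5, and 1809 with the replicate block on back-transformed values. Leaving out a library or donor gave 762 to 1422, with 762, 790 and 777 without donors 1, 2 and 5. The replicate block alone gave 1486 genes and changed the call of no member. Of the pathway genes, 11 were called, 19 without a minimum difference, 5 at an adjusted p below 0.01, and 5 to 16 when a library or donor was left out. The sign of SOST turned with array weights (-0.05) and, leaving out libraries or donors, ranged from -0.06 to 0.25, that of FRZB from -0.90 to 0.04 and that of LEF1 from -0.43 to 0.16. The cause was not tested. NOTUM, NKD1 and TCF7 were called under all 29. Depth limits DKK2, SFRP5, WIF1 and SOST. The deposited scale understates differences of genes with few reads, and on back-transformed values DKK2 was at -0.83, SFRP5 at 0.94, FRZB at -0.42, RSPO1 at -3.32 and SOST at 0.24.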
